A study of Mus musculus with 89 samples.

Results

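Krt5 and Krt14 are the keratins of the basal layer of stratified epithelium, and here they are 2 of 19962 targets, chosen by name. Both were read on the GeoMx digital spatial profiler. In this assay oligonucleotide tags hybridise to RNA on a tissue section, and ultraviolet light releases the tags of a chosen region for sequencing. The 89 segments all carried the label neutrophil and came from frozen sections of squamous cell carcinomas of mice. The question of the series is how neutrophils placed differently in these tumours respond to immunotherapy.

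Per the annotation that the authors gave, 1 slide, called naive, held 15 segments of stroma, 13 of the interface with the tumour and 14 within the tumor. The acute slide held 9 stroma and 2 interface segments, and the relapse slide held 14 stroma and 22 interface segments. Each stage was on 1 slide. The scan of the naive slide is named "naive UP HRass", that of the relapse slide "DMBA Relapse" and that of the acute slide "treated", and the relapse slide itself is named "treated". Stage, tumour model and slide therefore cannot be told apart, and the agent, strain and age are not given in the sources used here. Animals are not named either. Segments share slides and may share animals. A p-value over segments below does not measure the spread between animals, and can be too small.

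Keratins form obligate pairs of a type I and a type II protein, which assemble into the intermediate filaments of epithelial cells. Krt14 is the type I and Krt5 the type II partner of the pair made by basal keratinocytes, the dividing cells attached to the basement membrane. The pair is also made by many squamous cell carcinomas, and neutrophils are not a usual source of either.

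In RefSeq (GRCm38.p6) Krt14 lies at chr11:100203162-100207510 and Krt5 at chr15:101707069-101712905, both on the minus strand. The partners of the pair are thus encoded on different chromosomes. The window of 300 bases around the start of Krt5, chr15:101712856-101713155 on the minus strand, is shown because it holds the start of 1 of the genes measured. Capitals mark the letters ATAAAA, a variant of the TATA box, found 29 bases before the start:
Krt5: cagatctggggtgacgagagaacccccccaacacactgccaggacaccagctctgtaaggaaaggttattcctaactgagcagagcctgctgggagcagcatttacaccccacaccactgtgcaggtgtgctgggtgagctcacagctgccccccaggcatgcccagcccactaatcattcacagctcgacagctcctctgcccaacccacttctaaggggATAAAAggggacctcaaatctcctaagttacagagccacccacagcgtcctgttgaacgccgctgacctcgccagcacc
On both strands, ATAAAA occurs in 18.5% of the 32817 windows of the same length. The other motifs were looked for and not seen in the Krt5 window. The TATA box itself, TATAAA, occurs in 13.6% of all windows. The AP-1 motif, read here as TGANTCA, occurs in 7.81% of windows. The CCAAT box occurs in 37.4% of them. The start site on which the Krt14 window is placed lies 1480 bases inside the bounds of the gene. That window held none of the 4 motifs and is not shown.

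The deposited values are normalised signal. Each is a tag count divided by an upper-quartile factor of its segment, so multiplying by that factor gave back whole counts for both keratins in all 89 segments. No count was below 1, and 1 count is the floor. Depth, the sum of counts above the floor, had a median of 7216 and ranged from 573 to 208675. Median depth was 18307 in naive interface and 3570 in relapse interface, and the median value of 1 count was 1.87 and 3.74 there. A target at its floor is therefore higher in relapse on the scale of deposited values, and counts are given beside them throughout. A target was called above its limit of quantitation when its count exceeded both 2 and the geometric mean of the negative probes times their geometric SD squared.

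Krt14 exceeded this limit in 66 of 89 segments and Krt5 in 40. Of the 12 neutrophil markers looked up, S100a8 exceeded it in 44 segments, S100a9 in 38, Ly6g in 6, Csf3r in 4 and Ltf in 0. Krt14, a keratinocyte gene, was thus above the limit in more of these neutrophil-labelled segments than any of the 12 neutrophil markers. Of the 6 other keratinocyte markers, Perp exceeded it in 14 segments, Dsp in 13, Krt15 in 7, Trp63 and Cdh1 in 4 each and Epcam in 2. A segment pools all cells under its mask, so fewer keratinocytes and less keratin RNA per keratinocyte cannot be told apart.

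Krt5 had its highest median count in relapse interface and was near its floor in naive interface. Its recovered count in relapse interface ran from 1 through a median of 9 to 19 over 22 segments, and 19 segments exceeded their limit. In relapse stroma it ran from 1 through 5 to 10 over 14 segments, with 11 above the limit. In naive interface it ran from 1 through 1 to 3 over 13 segments: 9 were at the floor and 0 exceeded the limit.

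Within the naive tumor Krt5 ran from 1 through 1 to 14 over 14 segments, with 8 at the floor and 2 above the limit. Naive stroma spread most, from 1 through 2 to 43 over 15 segments, with 5 at the floor and 5 above the limit. Acute stroma ran from 1 through 5 to 33 over 9 segments with 3 above the limit, and both acute interface segments had 4 counts and were not above it. The highest single counts were thus in naive and acute stroma. The classes overlapped, but the highest naive interface segment lay below the median of both relapse classes.

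Krt14 exceeded its limit in more segments than Krt5 in 5 of 7 classes and likewise had its highest median count in relapse interface. There its recovered count ran from 1 through a median of 16 to 47, and 19 of 22 segments exceeded their limit. In relapse stroma it ran from 3 through 9 to 20, and all 14 segments exceeded the limit. Unlike Krt5, Krt14 was off its floor in naive interface, where it ran from 1 through 5 to 18 with 11 of 13 segments above the limit.

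Within the naive tumor Krt14 ran from 1 through 5 to 15, with 12 of 14 segments above the limit. In naive stroma it ran from 1 through 3 to 96, with 6 of 15 above the limit. In acute stroma it ran from 2 through 8 to 54, with 3 of 9 above the limit. The acute interface segments had 6 and 24 counts, of which only the higher exceeded its limit. No acute segment was at the Krt14 floor, and the median limit of quantitation of acute stroma was 9.25 counts, against 2 in naive and relapse stroma.

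**Figure D1:**
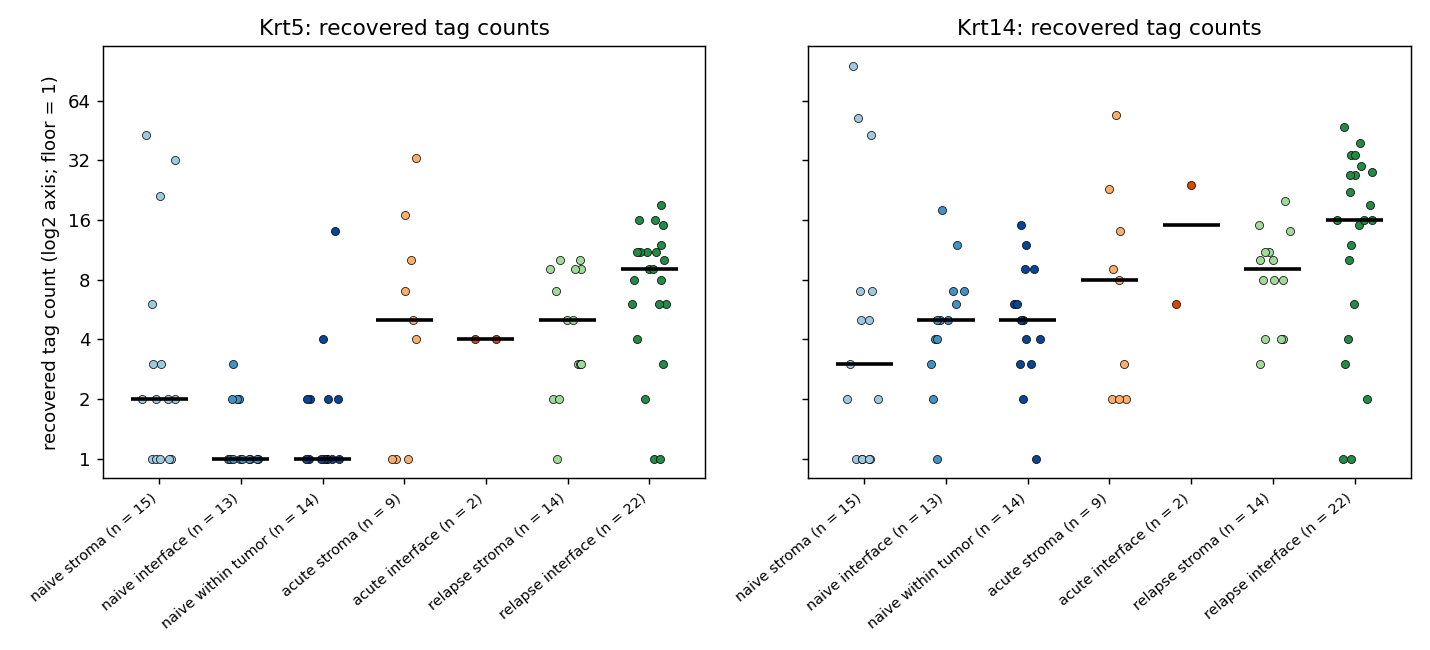
Recovered tag counts of Krt5 (left) and Krt14 (right) in each of the 89 segments, by class, on a log2 axis with a floor of 1; points are segments, spread sideways for legibility, and bars are medians. The Krt5 points of naive interface lie between 1 and 3, and those of relapse interface between 1 and 19.

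Ordered by mean deposited value, Krt5 ran from relapse interface (30.6 ± 16.7, SD, n = 22) to relapse stroma (18.03 ± 10.47, n = 14), naive stroma (9.20 ± 9.25, n = 15) and within the naive tumor (5.92 ± 4.80, n = 14). Acute stroma (5.47 ± 3.43, n = 9), acute interface (3.74 in both segments) and naive interface (2.45 ± 1.72, n = 13) followed. Neighbours in this order differed by less than the larger of their SDs. Krt14 also led in relapse interface (65.3 ± 48.8) and relapse stroma (29.5 ± 13.1). The order below them differed: within the naive tumor (17.1 ± 12.1), naive stroma (14.97 ± 20.2), acute interface (14.03, n = 2), naive interface (11.03 ± 11.1) and acute stroma (7.81 ± 4.82). Here too neighbours differed by less than the larger of their SDs.

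Per 10000 counts of depth, the median of Krt5 was 17.8 in relapse interface and 8.77 in relapse stroma. It was 0.399 in naive stroma, 0.619 in acute stroma, 0.596 in acute interface and 0 in the other naive classes. The median of Krt14 on this scale was 47.3 in relapse interface, 19.2 in relapse stroma and 4.23 within the naive tumor. It was 2.68 in naive interface, 2.78 in acute interface, 1.24 in acute stroma and 1.18 in naive stroma. The medians of both relapse classes were above those of the 5 others for both genes.

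The first question was whether the keratins differ between relapse and naive at the same location. Differences are in mean log2(deposited value + 1), fitted with limma over all 89 segments and 7 classes, two-sided, and adjusted by Benjamini-Hochberg over the 5087 targets that exceeded their limit in at least 10% of segments. At the interface Krt5 rose by 3.02 (SE 0.304, adjusted p = 4.55e-15) and Krt14 by 2.26 (SE 0.373, adjusted p = 5.02e-06). Both members were called, where 9.77% of all tested targets were called in either direction and 9.36% as higher. The median of all tested targets was 0.22 here. Since no naive interface segment exceeded its Krt5 limit, the Krt5 difference is a distance from near-floor values, whose size depends on the floor and the scale, and is no fold of RNA.

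The counts themselves moved the same way although relapse segments were shallower. With counts left without normalisation Krt5 was higher by 2.45 and Krt14 by 1.32, where the median of all tested targets was -0.78. By voom on the counts less the floor the differences were larger, 5.43 for Krt5 and 3.96 for Krt14, where that median was 1.25. With all segments thinned to 2000 counts, which left out 7 relapse interface segments, the differences were 1.89 and 2.69, both called. Piece means lost both calls: with 1 mean per tissue piece and class, Krt5 was higher by 2.17 (SE 0.613, unadjusted p = 0.00107 and adjusted p = 0.995 by limma) and Krt14 by 1.40 (adjusted p = 0.995). With a term for plate Krt14 was higher by 1.96 (adjusted p = 0.187 by limma) and was no longer called, and without naive piece 4 it was higher by 1.78 (adjusted p = 0.21).

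In stroma, relapse exceeded naive by 1.15 for Krt5 (SE 0.323, adjusted p = 0.0368 by limma) and by 1.53 for Krt14 (SE 0.396, adjusted p = 0.0164). Both members were called, where 1.4% of tested targets were called in either direction and 0.138% as higher. By voom they were 2.32 and 2.62, both called. With tissue piece as a random block the differences were 1.03 (adjusted p = 0.197 by limma) and 1.42 (adjusted p = 0.0873). Without relapse piece 3, which holds 9 of the 14 relapse stroma segments, they were 0.48 and 1.28 and neither was called. Krt5 was also not called without naive piece 2 (1.15), 3 (0.64) or 4 (1.003), nor Krt14 without naive piece 3 (1.09) or 5 (1.25).

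Naive segments were collected into plate G alone, and those of relapse into plate H alone. Only acute stroma was on both, with 4 segments on G and 5 on H. There plate H exceeded plate G by 0.14 for Krt5 (exact permutation test, two-sided, p = 0.825) and by 0.30 for Krt14 (exact p = 0.651). Median depth there was 111275 on H and 11646 on G, and the plates held partly different tissue pieces. That comparison therefore did not separate plate from depth or piece. The term for plate rests on acute stroma alone, and with it the SE of the Krt5 difference at the interface was 0.659, against 0.304 without. The summed level of the 6 keratinocyte markers other than the pair also differed: its median per 10000 counts was 4.37 (range 0 to 13.4) in relapse interface and 1.79 (0 to 6.47) in naive interface. In stroma it was 0 (0 to 5.35) in relapse and 1.86 (0 to 6.40) in naive. Of these markers 5 exceeded the limit in at least 1 relapse interface segment, and Epcam in none. In naive interface 5 did so as well, and Dsp in none. The share of their values above the limit was 12.1% in relapse interface and 14.1% in naive interface. The part of these markers in the keratin difference was not tested.

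Within the naive slide Krt5, and not Krt14, passed the test between stroma and interface. From stroma to interface Krt5 fell by 1.17 (SE 0.329, adjusted p = 0.0087 by limma), where 11.1% of tested targets were called and 10.5% as lower. Krt14 differed by -0.03 (SE 0.404, adjusted p = 0.974). The Krt5 call was lost when every segment was scaled to the same total (-0.90), with thinned counts (-0.34), with 1 mean per tissue piece (-0.83) and with no normalisation (-1.29). Compared within tissue pieces, with a term for each piece, Krt5 differed by -0.81 (SE 0.414, adjusted p = 0.421 by limma) and was not called. No naive interface segment exceeded its Krt5 limit, so this difference too is measured against near-floor values. It was also lost without naive piece 1 (-0.85) or naive piece 4 (-0.97). The summed fibroblast markers moved with this comparison: their median per 10000 counts was 193.5 (14.5 to 328) in naive stroma and 14.2 (5.77 to 310) in naive interface. Their part in the Krt5 difference was not tested.

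Segments within the naive tumor differed from naive stroma by -0.30 for Krt5 (adjusted p = 0.74 by limma) and 0.66 for Krt14 (adjusted p = 0.47). Neither was called, where 3.66% of tested targets were. Against naive interface they differed by 0.87 for Krt5 (adjusted p = 0.257) and 0.70 for Krt14 (adjusted p = 0.47), where 0.059% of targets were called. All 14 of these segments lay in regions that also had a mask for cancer, and 4 of them had fewer than 2000 counts.

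On the relapse slide the interface differed from stroma by 0.71 for Krt5 (SE 0.297) and 0.70 for Krt14 (SE 0.364), both with an adjusted p of 1 by limma. Of all tested targets 0% were called here; 131 had an unadjusted p under 0.05, and limma's voom on the counts called 0. On the acute slide stroma differed from naive stroma by -0.31 for Krt5 (adjusted p = 0.771 by limma) and -0.23 for Krt14 (adjusted p = 0.879), where 0.0197% of targets were called. A term for location by stage asked whether interface minus stroma differed between relapse and naive. For Krt5 it was 1.87 (SE 0.443, adjusted p = 0.00488 by limma), among 4.19% of targets called in either direction and 4.07% as higher. For Krt14 it was 0.73 (adjusted p = 0.509) and was not called. Without naive piece 4 the Krt5 term was 1.68 (adjusted p = 0.191) and was lost, as it was with thinned counts (1.29), with the same total (1.75), with no normalisation (1.92), with piece means (1.74) and within tissue pieces (1.55, adjusted p = 0.343 by limma).

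**Figure D2:**
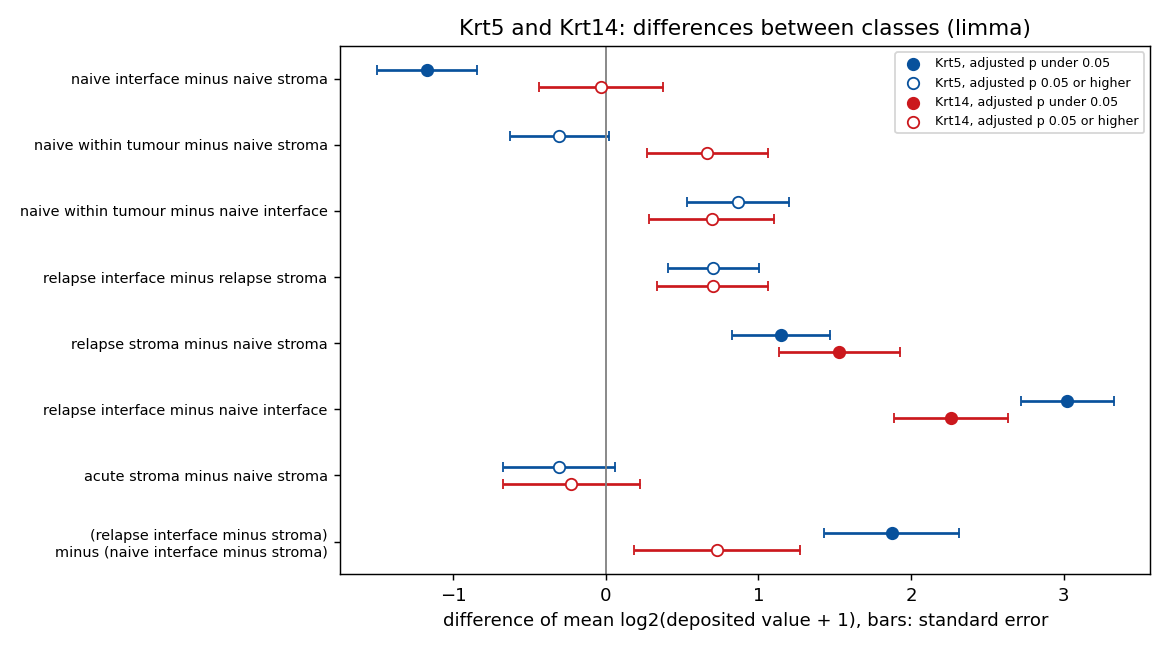
Differences of mean log2(deposited value + 1) for Krt5 (blue) and Krt14 (red) in 8 comparisons, with the standard error of the limma fit as bars; filled points have an adjusted p under 0.05. Both keratins are filled for relapse against naive in stroma and at the interface, and only Krt5 is filled for naive interface against stroma (-1.17) and for the last comparison (1.87).

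The annotation does not name tissue pieces. Segments on a slide were therefore joined into pieces where their regions lay within 10000 coordinate units of one another, which gave 14 pieces: 5 naive, 5 acute and 4 relapse. Within a slide the keratins varied strongly between pieces, and naive piece 1 is singled out after its values were seen. Naive piece 1 held 3 of 15 naive stroma segments but 93 of the 106 Krt5 counts above the floor of that class, 87.7%, and 188 of the 212 Krt14 counts, 88.7%.

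Those 3 segments had Krt5 counts of 21, 32 and 43 and Krt14 counts of 52, 43 and 96. Their depths were 30779, 90877 and 96548. The 12 naive stroma segments of other pieces ran from 1 through 2 to 6 for Krt5 and from 1 through 2 to 7 for Krt14. The groups did not overlap in counts of either gene, but the share of all targets that separate in this way was not looked at. The 3 depths were also above the class median of 10736. Per 10000 counts of depth, Krt14 was 4.62 to 16.6 in naive piece 1 and 0 to 12.3 in the others, so on that scale they overlapped.

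Naive piece 1 was also high at its other locations. Its 1 interface segment had 12 Krt14 counts at a depth of 6185, or 17.8 per 10000, where the other 12 naive interface segments lay between 0 and 6.86. Its 3 segments within the tumor had 9, 9 and 12 Krt14 counts at depths of 796, 1454 and 1921. That is 55.02 to 100.5 per 10000, where the other 11 segments within the naive tumor lay between 0 and 24.4. These 3 held 6, 17 and 16 nuclei, so that each rests on few cells. Krt5 in the same 3 segments was at 2, 1 and 4 counts.

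Relapse was uneven as well. Relapse pieces 1 and 3 held 21 of the 22 interface segments, with median Krt14 counts of 15.5 and 22. The 1 interface segment of relapse piece 4 had 6 Krt14 and 2 Krt5 counts at a depth of 8363, or 5.98 and 1.20 per 10000. The 1 stroma segment of that piece had 4 Krt14 counts and Krt5 at its floor. In the acute slide no segment exceeded 4.74 Krt14 counts per 10000 or 2.15 Krt5 counts per 10000.

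**Figure D3:**
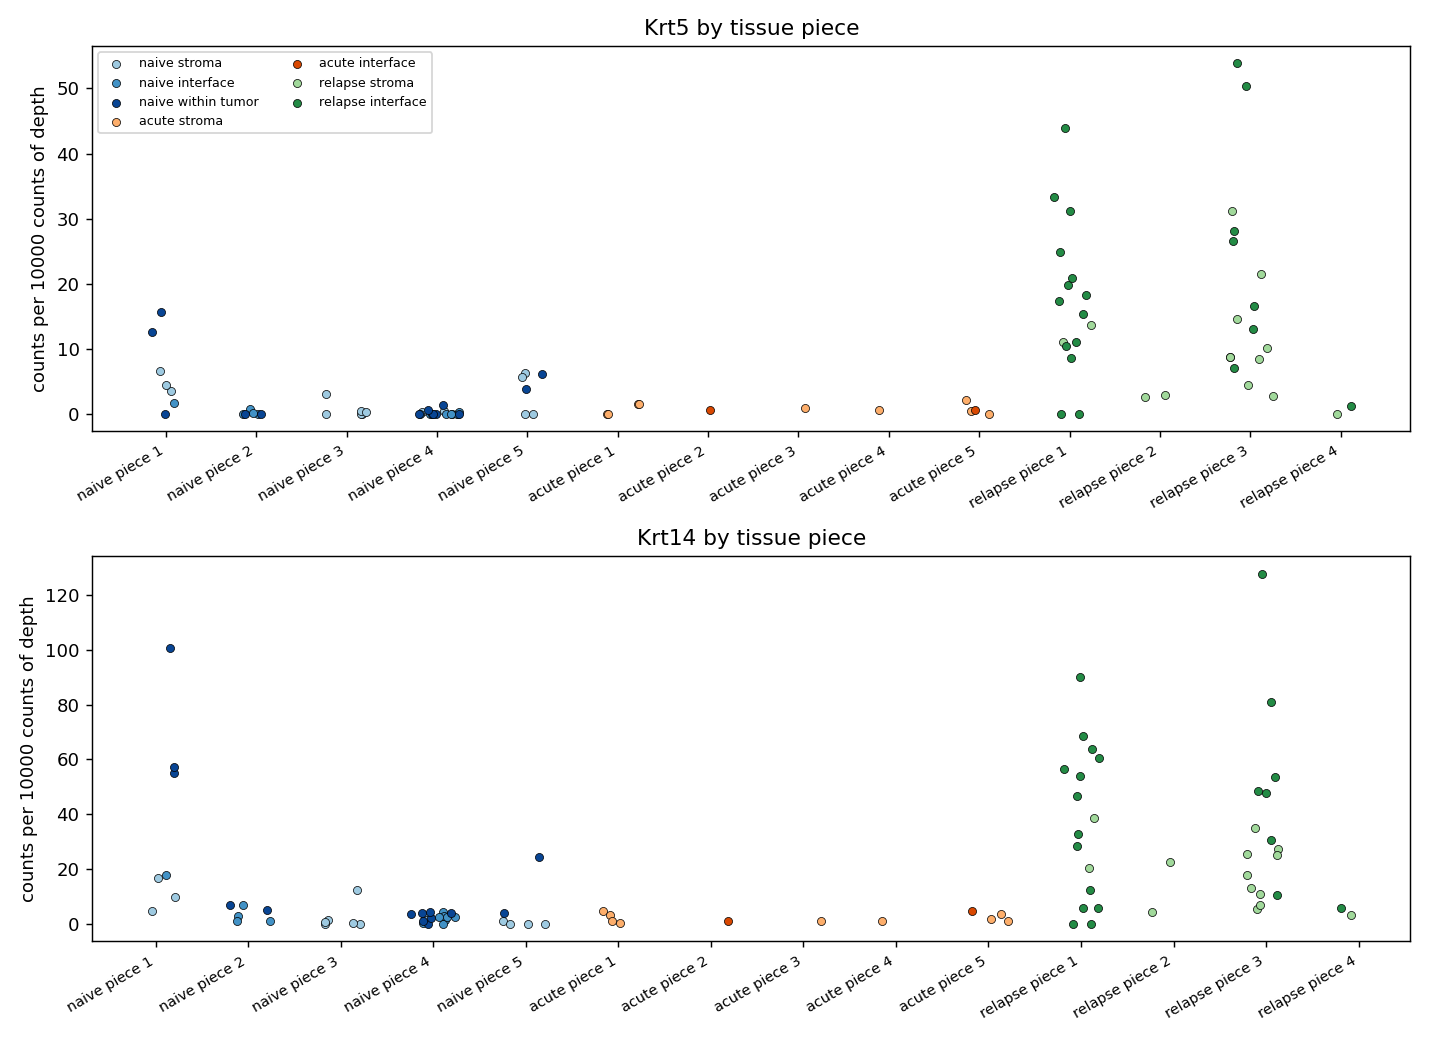
Krt5 (top) and Krt14 (bottom) counts per 10000 counts of depth in each segment, by tissue piece; colours are classes and points are spread sideways for legibility. Naive piece 1 and relapse pieces 1 and 3 hold the high values of Krt14, and the naive piece 1 segments within the tumor reach 100.5.

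Depth bears on both genes differently in each class. Over the 9 acute stroma segments the log2 recovered count followed log2 depth closely, with a Pearson r of 0.913 for Krt5 and 0.882 for Krt14 (Spearman 0.932 and 0.915). The r without the 2 segments farthest in depth was 0.877 and 0.894. In naive stroma r was 0.656 and 0.762, falling to 0.373 and 0.598 without the 2 farthest. In relapse interface it was 0.626 and 0.681, falling to 0.286 and 0.43. Each of these is a description over segments that share slides and pieces, and depth contains the counts themselves.

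In the other classes counts followed depth less. Within the naive tumor r was 0.257 for Krt5 and -0.01 for Krt14, and per 10000 counts Krt14 was lower at greater depth (r = -0.76, Spearman -0.68). In naive interface it was 0.362 and 0.107, and in relapse stroma 0.209 and 0.316. Across all 89 segments r was 0.223 and 0.277.

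Depth also sets what a floor count can mean. In relapse interface both keratins were at the floor in the 2 shallowest segments, with depths of 573 and 820. A count of 0 above the floor there allows up to 52.4 and 36.6 per 10000 (3 counts), above the Krt5 median of the class, 17.8. The Krt14 median of the class, 47.3, lies below the first of these limits and above the second. The 9 naive interface segments at the Krt5 floor were deeper, from 5831 to 32653. Over that class, 5 Krt5 counts were found in a total depth of 311937, or 0.16 per 10000, against 173 in 101558 in relapse interface, or 17.03 per 10000. These limits cover counting error only.

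**Figure D4:**
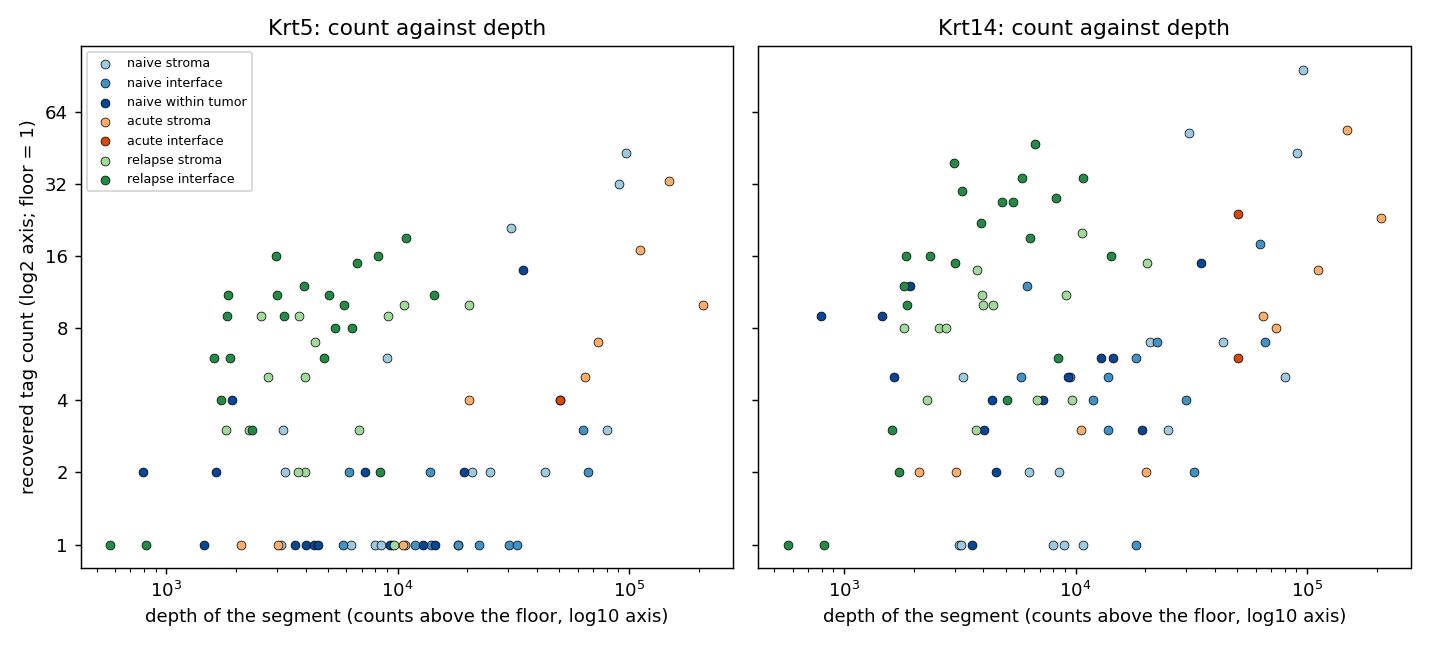
Recovered tag count of Krt5 (left) and Krt14 (right) against segment depth, log axes, coloured by class. Most relapse segments sit above naive segments of similar depth, and acute stroma rises with depth to 33 Krt5 and 54 Krt14 counts.

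The partners varied together across segments. Over all 89 segments the log2 recovered counts of Krt14 and Krt5 had a Pearson r of 0.772 and a Spearman rho of 0.766. Within classes r ranged from 0.596 within the naive tumor to 0.902 in acute stroma. Without the 2 segments farthest in Krt5 it ranged from 0.198 within the naive tumor to 0.877 in relapse stroma. Per 10000 counts r was 0.762 over all segments but -0.23 in acute stroma, where counts of both genes follow depth. On that scale r fell from 0.835 to -0.04 in naive interface without the 2 farthest segments. Within the naive tumor it fell from 0.771 to 0.174. The 2 genes of a segment share its cells, library and depth, so these values are a description.

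Krt14 had the higher count in 74 of 89 segments, the 2 were equal in 7, all of them with both at the floor, and Krt5 was higher in 8. Krt5 was at its floor with Krt14 above it in 21 segments, and the reverse held in 2. The 8 segments with more Krt5 came from 4 classes. They include 2 of naive piece 5 stroma, with 3 and 6 Krt5 counts and Krt14 at its floor, and 3 of relapse piece 1 interface, with 4, 11 and 6 Krt5 counts against 2, 4 and 3 of Krt14. A count ratio is not a ratio of molecules, since each target has probes of its own and their sequences were not used here. Cross-hybridisation between related keratins was not tested.

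Pooled over a class, Krt14 made up 69.1% of the counts of the pair in relapse interface (387 against 173, exact 95% interval 65.1 to 72.9). It made up 64.4% in relapse stroma (56.98 to 71.4), 66.7% in naive stroma (61.2 to 71.8) and 60.7% in acute stroma (53.1 to 67.9). The intervals of these 4 classes overlap. Within the naive tumor the share was 77.8% (67.8 to 85.9), and in acute interface 82.4% (65.5 to 93.2). Naive interface stood highest at 93.0% (84.3 to 97.7), with 66 Krt14 counts and 5 of Krt5. The intervals are exact binomial ones and cover counting error only. Single tissue pieces weigh heavily in some of these pools. Naive piece 5 gave 14 of the 20 Krt5 counts within the naive tumor. Naive piece 1 gave 93 of the 106 Krt5 and 188 of the 212 Krt14 counts of naive stroma.

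Per segment, the log2 ratio of Krt14 to Krt5 could be compared where both exceeded their limit in at least 3 segments of each class. That left 2 of 7 pairs of classes. Relapse interface had a mean log2 ratio of 0.93 ± 0.99 (SD, n = 18) and relapse stroma 0.63 ± 0.43 (n = 11), a difference of 0.30 (permutation test, two-sided, p = 0.352, adjusted p = 0.352). Relapse stroma differed from naive stroma (0.96 ± 0.47, n = 3) by -0.34 (exact permutation p = 0.275, adjusted p = 0.352). With every segment kept, so that Krt5 at its floor bounds the ratio, these differences were -0.06 and 0.38, with the sign turned in both.

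Over all segments naive interface had the highest mean log2 ratio, 1.92 ± 0.79 (SD, n = 13), against 0.47 ± 1.21 in naive stroma (n = 15) and 0.79 ± 1.03 in relapse interface (n = 22). It exceeded naive stroma by 1.45 (permutation test, two-sided, adjusted p = 0.0028 over 7 pairs) and the difference of relapse interface from it was -1.13 (permutation, adjusted p = 0.00399). Within the naive tumor the mean was 1.57 ± 0.96 (n = 14), higher than naive stroma by 1.11 (permutation, adjusted p = 0.02). Since 9 of 13 naive interface segments and 8 of 14 within the naive tumor had Krt5 at the floor, these ratios rest on Krt14 and on depth there. Only 2 segments within the naive tumor had both genes above the limit. Their mean was 0.84, against 0.96 in the 3 such segments of naive stroma, so the higher ratio was not seen there.

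**Figure D5:**
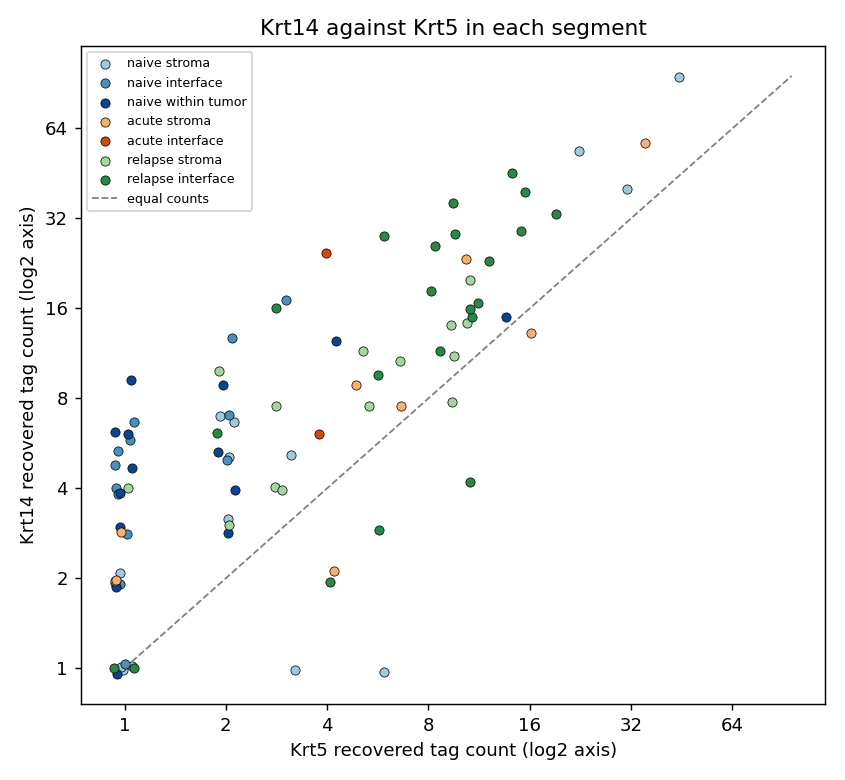
Recovered Krt14 count against recovered Krt5 count in each of the 89 segments, log2 axes, with points spread slightly and a dashed line of equal counts. Points above the line (74 of 89 segments) have more Krt14, and the naive interface points stack at 1 to 3 Krt5 counts.

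Some regions carried a cancer mask beside the neutrophil masks, by the tags of the annotation. In naive interface the 4 segments of such regions had Krt14 counts of 5, 5, 12 and 18, and the 9 others ran from 1 through 4 to 7. Krt5 was at 1, 2, 2 and 3 counts in the 4, and 8 of the 9 others were at the floor. No Krt5 value exceeded its limit in either group, so Krt5 is given by its counts alone. On the scale of log2(value + 1) Krt14 was higher in the masked regions by 1.53 (exact permutation test, two-sided, p = 0.00839, adjusted p = 0.0252 over 6 tests). Median depth was 9967 in the 4 and 18313 in the 9. Mask and tissue piece were mixed: the masked segment with 12 counts was the only one of naive piece 1. In naive piece 4 the masked segment had the highest Krt14 value, 13.46, but its 2.70 counts per 10000 lay within the 0 to 4.23 of the others. In naive piece 2 the masked segments had 6.86 and 2.91 per 10000, and the others 0.995 and 0.907. The test did not separate mask from piece.

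In relapse interface, 13 segments lay in regions with a cancer mask and 9 did not. Krt14 ran from 2 through 19 to 47 with the mask and from 1 through 10 to 30 without, and Krt5 from 2 through 10 to 19 and from 1 through 6 to 12. The differences were 1.14 for Krt14 (exact permutation adjusted p = 0.196) and 0.50 for Krt5 (exact adjusted p = 0.333). In acute stroma, with 3 masked regions against 6, they were -0.39 and -0.70 (exact permutation adjusted p = 0.333 for both). Median depth was 5853 in the 13 masked relapse interface segments and 1879 in the 9 others. The shallow relapse segments with both genes at the floor were among the 9 without the mask. Its part in the differences between classes was not tested, since the share of masked regions differed between them.

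By Spearman's rho of counts per 10000 over the 89 segments, among 5086 other targets, the partner came first for Krt5 (Krt14, rho = 0.74). Krt6a (0.726), Krt6b (0.715), Fabp5 (0.665) and Krt17 (0.664) followed. For Krt14 the order was Fabp5 (0.793), Krt6a (0.745), Krt5 (0.74), Krt6b (0.737) and Krt16 (0.626). Krt6a, Krt6b, Krt16 and Krt17 are keratins that epidermis makes on wounding and in hyperproliferation, and Fabp5 is an epidermal fatty acid binding protein. These 5 have a median of 7.31 to 32.6 counts per 10000 in relapse interface. They share libraries and depth with the pair, and the values are a description.

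Lists of other epithelial genes were taken to place the pair, with counts of members past the threshold. Of 5 wound keratins 4 were tested, and all 4 rose from naive to relapse at the interface: Krt16 by 2.88 (adjusted p = 4.13e-12 by limma), Krt6a by 2.63, Krt6b by 2.19 and Krt17 by 1.66. Of all tested targets 9.36% were called as higher there. In stroma 3 of the 4 rose, Krt16 by 1.44, Krt6a by 1.44 and Krt6b by 1.43, and Krt17 differed by 0.85 (adjusted p = 0.0546 by limma), where 0.138% of all tested targets were called as higher. The median of the 4 was 2.41 at the interface and 1.44 in stroma, against 0.22 and 0.02 over all tested targets. At the interface all 4 calls were kept with the same total per segment, thinned counts, no normalisation and voom. With a term for plate only Krt16 kept its call, with piece means none did, and without naive piece 4 Krt6b (1.76) and Krt17 (1.25) lost theirs. In stroma the 3 calls were lost with no normalisation, plate or piece means, and without naive piece 3 (0.92 to 1.15) or relapse piece 3 (1.18 to 1.48); Krt6a was also lost without naive piece 4 (1.35). Mean deposited values in relapse interface were 48.5 for Krt6a, 33.4 for Krt6b and 14.5 for Krt17.

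Of 13 other basal layer genes only 4 were tested, and 1 rose at the interface: Cd44, a receptor for hyaluronan also made by leukocytes, by 0.81 (adjusted p = 0.00277 by limma), where 9.36% of all tested targets were called as higher. Itgb1, Lamb3 and Plec, which attach basal cells to the matrix, differed by 0.50, 0.30 and 0.36 and did not pass. The Cd44 call was lost with the same total per segment (0.41) and thinned counts (0.34), and with no normalisation its sign turned (-0.01). It was also lost without naive piece 4 (0.60) or relapse piece 1 (0.63). Krt15, Itga6, Itgb4, Col17a1 and Trp63, which also mark the basal layer, were not among the tested targets. In stroma none of the 4 passed.

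Of 16 suprabasal and cornified genes 11 were tested, and 5 rose at the interface: Krtdap by 1.10, Sprr1b by 0.75, Dmkn by 0.73, Sfn by 0.59 and Sbsn by 0.51 (adjusted p from 0.00107 to 0.046 by limma), beside the 9.36% of all tested targets called as higher. In stroma 0 of the 11 were called. The rises at the interface depend on the scaling and on single tissue pieces. The same total per segment kept the call of Krtdap alone, and thinned counts kept none of the 5. With no normalisation Krtdap was at 0.26 and the signs of Sprr1b, Dmkn, Sfn and Sbsn turned (-0.43 to -0.175). All 5 calls were lost without naive piece 4 (0.39 to 0.62), those of Sprr1b (0.44), Sfn (0.76) and Sbsn (0.48) without relapse piece 1, and those of Dmkn (0.57), Sfn (0.54) and Sbsn (0.51) without relapse piece 3. Sprr1b (0.70) and Sbsn (0.54) were also lost without naive piece 2. The keratins of differentiating cells did not pass: Krt1 differed by 0.56 (adjusted p = 0.248) and Krt10 by -0.39 (adjusted p = 0.379). Of 11 desmosome and junction genes 3 were tested, and 2 rose, Dsp by 1.28 (adjusted p = 6.79e-08 by limma) and Jup by 0.66 (adjusted p = 0.0188), against the same 9.36%. In stroma 0 of the 3 were called. Dsp kept its call with the same total (1.004) and thinned counts (0.77), whereas Jup lost it and turned sign with thinned counts (-0.09) and no normalisation (-0.22). Dsp was not called with no normalisation (0.59) or a term for plate (1.12), nor Jup without naive piece 4 (0.40) or relapse piece 1 (0.54). With piece means 0 of the tested targets were called, so that Cd44, the 5 suprabasal genes, Dsp and Jup all lost their calls. The 1 simple keratin tested, Krt8, differed by 0.17 (adjusted p = 0.583 by limma). From naive stroma to naive interface, Plec fell by 0.65 (adjusted p = 0.0147 by limma) and Sbsn fell by 0.59 (adjusted p = 0.0284). Of all tested targets 10.5% were called as lower there. The term for location by stage was 1.02 for Dsp (adjusted p = 0.0136 by limma) and 0.89 for Plec (adjusted p = 0.0295), where 4.07% of all tested targets were called as higher. These 4 calls were lost with the same total per segment, with thinned counts, with no normalisation and within tissue pieces, with their signs kept, and also without naive piece 4. No member of the 5 lists passed in acute against naive stroma. The comparisons of relapse with naive at the interface and in stroma use different segments on the same slides.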

How the data were processed

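The authors deposited normalised signal per target and segment, the upper-quartile factor of each segment (a ratio) and an annotation of classes, slides, plates and negative-probe signal. Signal times factor gives back the tag count, as checked on the deposited values: 99.986% of recovered counts were whole within 1e-06, and 3 of 19962 targets held values that were not. The smallest count was 1, and 69.1% of values were at this floor. The build is mm10 and Seurat was used, per the submitters' processing notes; no aligner is named in these sources.

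Counts above the floor gave the depth. Log2(value + 1), with a pseudocount of 1, was tested with limma 3.58.1 in R 4.3.3 (lmFit, eBayes with trend, 1 mean per class), with Benjamini-Hochberg adjustment at 0.05 over 5087 targets. Ratios and masks used permutation tests in scipy 1.17.1 (100000 permutations, or exact). The scripts were tested on simulated data.

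Alternatives were the pseudocount, the filter, scaling, depth, tissue pieces, plate and leaving out each piece. The named genes were the pair, the 5 targets most alike to each, and list members past the threshold. The members, lists and tests were chosen with earlier results of these data known. Target names were used as deposited.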

Additional observations from a re-analysis of the deposited data

Results flagged for a closer look

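In acute stroma (n = 9) 1 segment lay far from the others in the counts of both keratins and in the deposited value of Krt14. Its Krt14 deposited value was 20.2, where the next highest was 7.48; its recovered Krt14 count was 54, where the next was 23. Its Krt5 count was 33, where the next was 17, a gap of 0.5 of the range against a critical 0.493. Its Krt5 deposited value, 12.34 where the next was 9.08, was not set apart. The segment had a depth of 149120. Per 10000 counts it had 3.55 of Krt14, below the highest of the class (4.74), and it was not apart from the others on that scale. The rule was applied to this class alone, since the others held too few or too many segments for its critical values. It sets apart about 1 group in 20 by chance for a single normally distributed quantity. Here it was applied to several quantities of both genes in segments of unlike depth, so that rate need not hold.

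For Krt5 the term for interface minus stroma in relapse against naive was 1.87 (SE 0.443, adjusted p = 0.00488 by limma). The call was lost with the same total (1.75, adjusted p = 0.311), thinned counts (1.29, 0.378), no normalisation (1.92, 0.426), piece means (1.74, 0.997), within tissue pieces (1.55, 0.343) and without naive piece 4 (1.68, 0.191). No naive interface segment exceeded its Krt5 limit. For Krt14 the term was 0.73 (SE 0.544, adjusted p = 0.509 by limma), and the difference between the genes was not tested.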

How the results depend on the processing

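The labels give no replicate numbers that pair segments. Tissue pieces, which are defined here from coordinates, hold several classes. A term for each piece, chosen after seeing the data, paired classes of 1 slide within pieces. Krt5 lost its calls for naive interface minus stroma (-0.81) and the term of location by stage (1.55), and Krt14 turned for the former (0.0175, uncalled). No other comparison within a slide changed its call for the pair. Comparisons between slides cannot be paired within pieces, so the calls for relapse minus naive were not tested in this way. A planned count test with edgeR was not run, because the deposited values are not counts; voom on recovered counts less the floor was chosen after seeing the data in its place, as were no normalisation and plate as a covariate. Counts less the floor plus 1 equal the recovered counts, so that alternative gave the same ratios. The cause of the changes below was not tested.

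With 1 mean per tissue piece and class, calls were lost for relapse minus naive at the interface (Krt5 2.17, Krt14 1.40) and in stroma (0.43, 0.95), for Krt5 from naive stroma to interface (-0.83) and for the Krt5 term of location by stage (1.74). With tissue piece as a random block the stroma calls were lost (1.03, 1.42), as with plate (1.01, 1.23) and no normalisation (0.53, 0.91); plate also lost Krt14 at the interface (1.96). Thinned counts lost the Krt5 calls for naive interface minus stroma (-0.34), relapse minus naive stroma (0.60) and the term (1.29). The same total lost the first (-0.90) and the term (1.75), and no normalisation lost both (-1.29, 1.92). With no filter Krt5 in stroma was lost (1.15).

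Voom gave larger differences for relapse minus naive, 5.43 for Krt5 and 3.96 for Krt14 at the interface and 2.32 and 2.62 in stroma, and 3.11 for the Krt5 term. It called Krt5 within the naive tumor against interface (2.21) and Krt14 against stroma (1.43) and interface (1.60), and turned Krt5 against stroma (0.32). Uncalled signs turned for Krt14 in naive interface minus stroma with the same total (0.35), the block (0.044), piece means (0.41) and no normalisation (0.17). They turned for acute minus naive stroma with no normalisation (Krt5 0.54, Krt14 0.66) and with the same total (Krt14 0.071), and for the ratio with every segment kept (-0.056, 0.38). Of the listed genes called at the interface, no normalisation turned Cd44 (-0.012), Sbsn (-0.43), Sfn (-0.32), Dmkn (-0.23), Sprr1b (-0.175) and Jup (-0.22), and thinned counts turned Jup (-0.087) and put Sbsn at 0.

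Without each tissue piece, Krt5 lay between -1.68 and -0.85 for naive interface minus stroma, -0.82 and 0.03 (0.0295 without naive piece 4) for within tumor minus stroma, 0.48 and 1.58 for relapse minus naive stroma, 2.68 and 3.21 at the interface, -0.82 and 0.13 for acute minus naive stroma and 1.56 and 2.39 for the term. Krt14 lay between -0.47 and 0.47, 0.22 and 1.35, 1.09 and 2.10, 1.78 and 2.66, and -0.67 and 0.34 for the first 5 of these.

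Counts of called targets moved more than the members. At the interface 497 targets were called for relapse against naive, but 11499 of 19962 with no filter, 4249 by voom and 3304 with no normalisation, 180 with the same total, 20 with thinned counts, 7 without naive piece 4 and 0 with piece means; the median of all targets was then 0.40, 1.25, -0.78, -0.25, -0.01, 0.10 and 0.15. For naive interface minus stroma 563 were called, with 0 to 678 under other settings; in stroma 71, with 1 to 2477; within the naive tumor 186 against stroma, with 2 to 1295, and 3 against interface, with 0 to 1473; for acute minus naive stroma 1, with 0 to 1218; for the term 213, with 0 to 242. Of the 89 values of each gene, 28 of Krt5 and 9 of Krt14 were at the floor.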
